A study of Rattus norvegicus with 6 samples.

Results

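Acyl-CoA thioesterases of the Acot family were examined in rat heart. The 8 genes Acot1, Acot2, Acot4, Acot7, Acot8, Acot9, Acot11 and Acot13 were taken by symbol from the deposited expression table, in which each stands on 1 of 32883 rows. Myocardial RNA was sequenced from 3 diet-induced obesity-prone (OP) rats given a high-fat diet and from 3 obesity-resistant (OR) rats given standard food, both for 12 months and both of Sprague Dawley background, with 1 library per rat. The animals were young when the diets began. Their sex is not named in the labels or methods, but the methods list epididymal fat, a depot of males, among the tissues taken. OP rats are a line bred to become obese on a rich diet, and OR rats are a line bred to stay lean. No OP rat on standard food and no OR rat on the high-fat diet was sequenced, so line and diet cannot be told apart.

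Acyl-CoA thioesterases split a fatty acyl-CoA into the free fatty acid and coenzyme A, the reverse of the activation step carried out by acyl-CoA synthetases. They set the balance between activated and free fatty acids and release coenzyme A in each compartment of the cell. The type I enzymes Acot1 (cytosol), Acot2 (mitochondrial matrix) and Acot4 (peroxisome) are closely related proteins with an alpha/beta-hydrolase fold. The type II enzymes Acot7, Acot8, Acot9, Acot11 and Acot13 share a different fold, named hotdog, and differ in place and substrate. Acot1 and Acot2 are known in rodents as genes induced by fasting and by ligands of PPARalpha, the nuclear receptor that senses fatty acids.

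Sequences upstream of 4 members are printed because Acot1 and Acot2 were the members that passed the test, and because Acot4 and Acot8 held a stretch that differs by 1 letter from the direct repeat bound by PPARalpha with its partner RXR. Each is the 250 bases before the annotated start in RefSeq (assembly GRCr8, not the build used by the authors), written 5′ to 3′ on the strand of the gene. The windows are chr6:109367024-109367273 on the plus strand for Acot1, chr6:109342590-109342839 on the plus strand for Acot2, chr6:109399604-109399853 on the plus strand for Acot4 and chr3:173962189-173962438 on the minus strand for Acot8. The listed starts of Acot2 and Acot4 lie inside the span of their genes. Capitals mark matches, on either strand, to the direct repeat AGGTCANAGGTCA with at most 1 letter different or to the CCAAT box.
Acot1: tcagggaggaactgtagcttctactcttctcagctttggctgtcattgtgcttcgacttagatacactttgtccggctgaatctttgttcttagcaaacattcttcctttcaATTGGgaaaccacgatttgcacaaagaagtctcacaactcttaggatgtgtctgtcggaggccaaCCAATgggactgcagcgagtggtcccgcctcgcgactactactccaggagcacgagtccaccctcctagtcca
Acot2: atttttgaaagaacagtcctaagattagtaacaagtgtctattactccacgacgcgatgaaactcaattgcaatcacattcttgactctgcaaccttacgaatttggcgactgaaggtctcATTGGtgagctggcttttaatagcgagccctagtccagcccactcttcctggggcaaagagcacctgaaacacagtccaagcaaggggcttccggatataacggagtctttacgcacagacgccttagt
Acot4: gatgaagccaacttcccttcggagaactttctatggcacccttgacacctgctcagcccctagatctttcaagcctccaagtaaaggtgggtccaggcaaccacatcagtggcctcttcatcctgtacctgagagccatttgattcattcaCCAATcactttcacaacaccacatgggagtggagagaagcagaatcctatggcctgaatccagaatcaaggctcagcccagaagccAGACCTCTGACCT
Acot8: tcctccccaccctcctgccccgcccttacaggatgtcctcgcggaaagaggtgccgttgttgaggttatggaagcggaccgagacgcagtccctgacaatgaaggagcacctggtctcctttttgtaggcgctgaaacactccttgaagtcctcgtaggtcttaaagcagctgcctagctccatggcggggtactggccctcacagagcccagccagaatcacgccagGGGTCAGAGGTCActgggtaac

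All 8 members matched the RefSeq table, with 9 promoters because Acot7 has 2 starts. A direct repeat with at most 1 letter different stood in 2 of these 9 promoters, those of Acot4 and Acot8, against 0.3675% of 33469 promoters. The repeat of Acot4 ended at the last base before the start, on the opposite strand, and that of Acot8 lay 22 to 10 bases before the start on the same strand. Up to 2 different letters gave the same 2 member promoters, against 3.146% of all promoters, and an exact repeat was found in 0 member promoters, against 0.0508%. The half-site AGGTCA, which lies within the repeat, was present in the same 2 promoters and in 14.06% of all promoters. CCAAT was present in 4 member promoters (Acot1, Acot2, Acot4 and Acot9) and in 34.02% of all promoters. The GC box GGGCGG was present in 5 member promoters, against 30.47%, and TATAAA in 0, against 12.93%. These are matches of letters in short windows and no binding was measured.

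Expression is given as counts per 1000000 reads assigned to genes (CPM), the deposited value divided by 20. Each library held between 10838184 and 12831577 reads assigned to genes, and 1 read stood for 0.0779 to 0.0923 CPM. OP replicate 2 stood apart from the other OP libraries, with a chi-square of reads per gene of 23.9 and 25.9 in its pairs within the group, against 6.02 to 6.87 in the other pairs within a group. Genes of heart muscle were abundant in every heart (summed level of 9 genes, 42695 to 44574 CPM in OP hearts and 43641 to 46995 CPM in OR hearts). CPM values depend on gene length, and lengths were not in the tables used here, so levels are compared between groups and not between genes.

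Of the 8 members, 7 passed the filter of at least 1 CPM in at least 3 libraries and were tested with limma, p values being adjusted over all 13445 genes tested. Acot1 and Acot2 rose in OP hearts, by 1.74-fold and 1.58-fold, and 0 members fell. The other 5 tested members did not pass an adjusted p of 0.05. The 2 higher members were 28.6% of those tested, against a background of 3.37% of all genes called (1.47% higher and 1.9% lower). Before adjustment, p was under 0.05 for 4 members that were higher (Acot1, Acot2, Acot7 and Acot13) and for 0 that were lower, against 10.4% and 12% of all genes. The log2 fold change was above 0 in 5 of the 7 tested members, against 50% of all genes. The median log2 fold change of the tested members was 0.26, and that of all genes tested was 0.00.

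**Figure D1:**
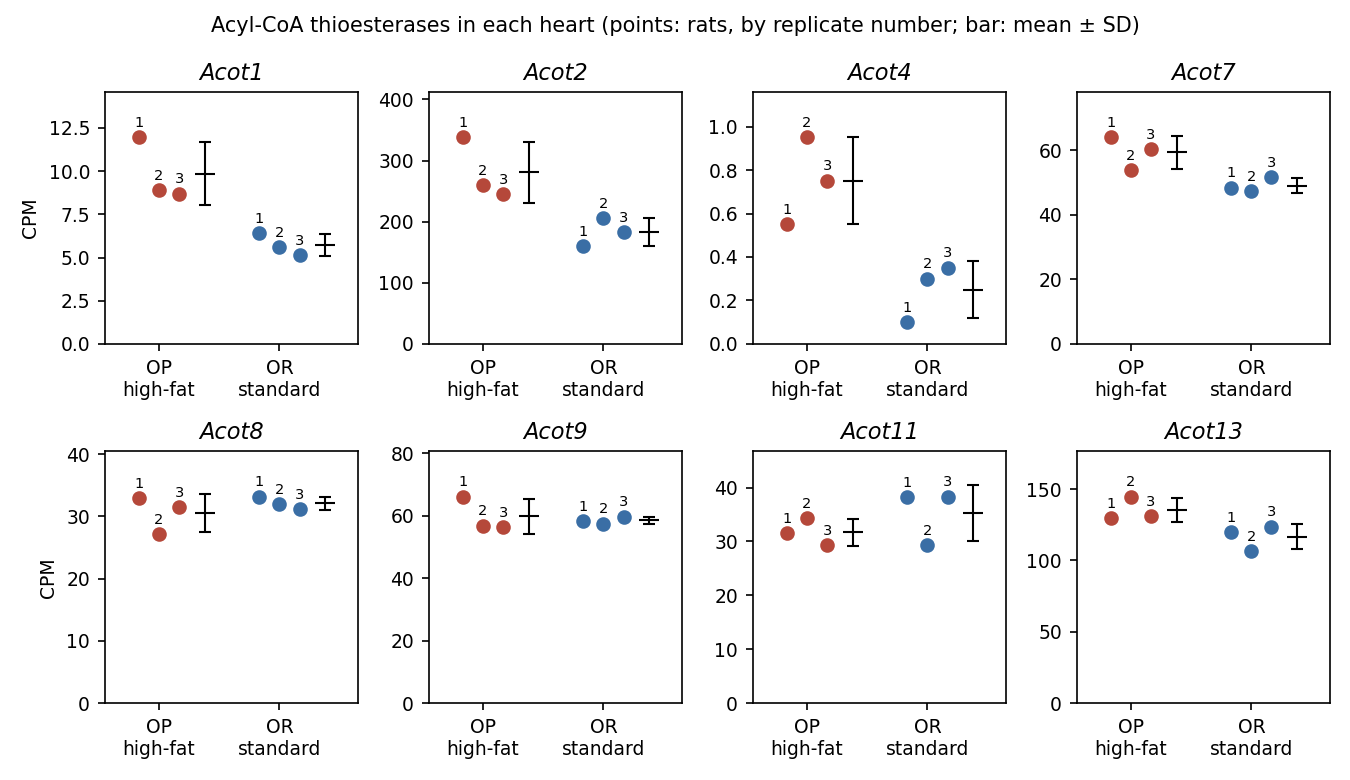
Level of each member in CPM (vertical axis, from 0, scaled per gene) in 3 OP high-fat hearts (left, red) and 3 OR standard hearts (right, blue), with points numbered by replicate and black bars giving the mean ± SD. The OP points lie above all OR points for Acot1, Acot2, Acot4, Acot7 and Acot13, and the groups overlap for Acot8, Acot9 and Acot11.

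Acot2, the mitochondrial matrix enzyme, measured 338, 260.0 and 245 CPM in OP replicates 1, 2 and 3, against 159.9, 206 and 183 CPM in OR replicates 1, 2 and 3. All OP hearts lay above all OR hearts, and OP replicate 1 was the highest. The means were 281 ± 49.7 CPM in OP hearts and 183 ± 22.9 CPM in OR hearts (SD, n = 3 each). The log2 fold change was 0.66 with a standard error of 0.14 (limma adjusted p = 0.0454), a 1.58-fold difference with a 95% interval of 1.27 to 1.97. Without OP replicate 1 the log2 fold change was 0.53 and the limma adjusted p was 0.0907. The adjusted p was also above 0.05 without each OR library (0.151 for replicate 1, 0.0979 for replicate 2 and 0.172 for replicate 3), and it was 0.0352 without OP replicate 2 and 0.0434 without OP replicate 3.

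Acot1, the cytosolic enzyme, measured 11.9, 8.90 and 8.70 CPM in OP replicates 1, 2 and 3, against 6.40, 5.60 and 5.15 CPM in OR replicates 1, 2 and 3. These values rested on 139, 98 and 111 reads in OP hearts and on 69, 66 and 59 reads in OR hearts. OP replicate 1 was the highest for this gene too, and no OR heart reached the lowest OP heart. The means were 9.85 ± 1.82 CPM in OP hearts and 5.72 ± 0.633 CPM in OR hearts (SD, n = 3 each). The log2 fold change was 0.80 with a standard error of 0.17 (limma adjusted p = 0.0445), a 1.74-fold difference with a 95% interval of 1.34 to 2.27. The limma adjusted p was 0.0382 without OP replicate 2. It lay between 0.0585 and 0.18 when any other single library was left out (OP replicates 1 and 3, OR replicates 1, 2 and 3). By unadjusted p, Acot1 was gene 367 and Acot2 gene 378 among the 453 genes called.

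**Figure D2:**
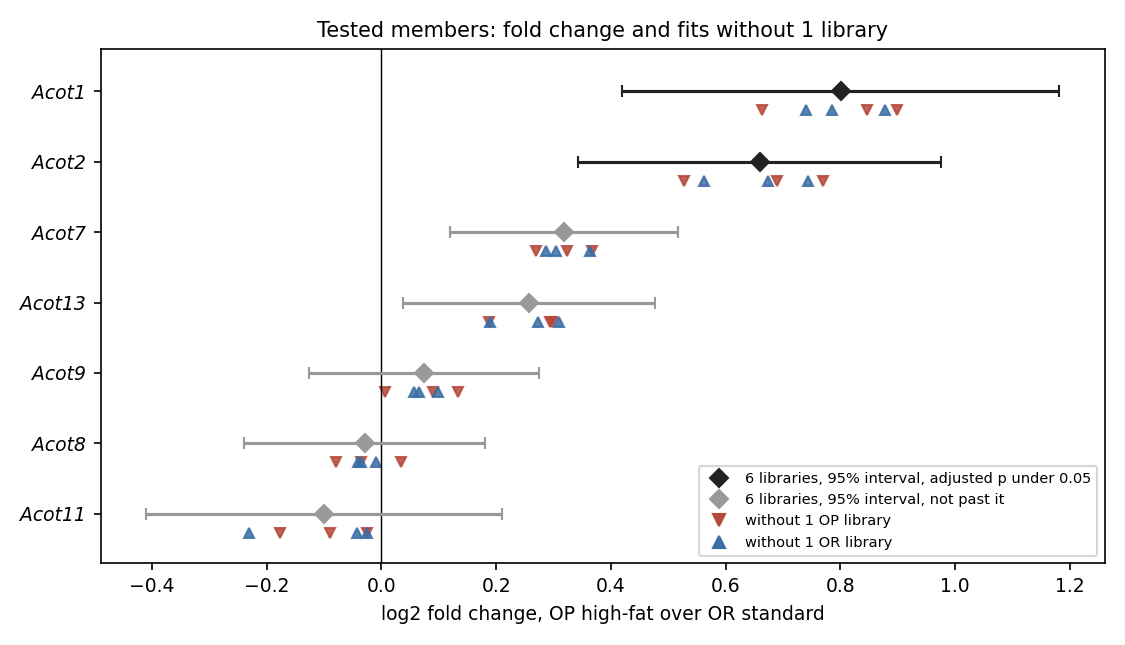
Log2 fold change of OP high-fat over OR standard hearts (horizontal axis) for the 7 tested members, with diamonds and 95% intervals from all 6 libraries (black where the adjusted p is under 0.05, grey otherwise) and triangles for fits without 1 OP library (red, pointing down) or 1 OR library (blue, pointing up). Acot1 and Acot2 lie between 0.53 and 0.90 in every fit without 1 library, Acot7 between 0.27 and 0.37, and Acot8 falls on both sides of 0.

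Acot4, the peroxisomal type I enzyme, was near the limit of detection and did not pass the filter. It measured 0.55, 0.95 and 0.75 CPM in OP hearts, against 0.1, 0.3 and 0.35 CPM in OR hearts. These values came from 6, 10 and 9 reads in OP libraries and from 1, 3 and 4 reads in OR libraries. All OP values exceeded all OR values. The ratio of pooled reads, 25 in OP hearts and 8 in OR hearts at their total depths, was 3.00, with an exact 95% interval of 1.31 to 7.71 that covers counting error only. Fitted without the filter, Acot4 had a log2 fold change of 1.13 with a standard error of 0.33 and did not pass (limma adjusted p = 0.133).

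Acot1, Acot2 and Acot4 stand close together on chromosome 6, where RefSeq orders the family as Acot2, Acot1, Acot4, Acot3, Acot5 and Acot6. Acot3, another type I gene of rodents, averaged 19.1 ± 1.77 CPM in OP hearts and 16.7 ± 1.49 CPM in OR hearts, with overlapping groups (log2 fold change 0.24, limma adjusted p = 0.251). Acot5 (0.233 and 0.167 CPM) and Acot6 (0.0333 and 0.0667 CPM) were almost undetected in OP and OR hearts. The summed level of the cluster was 371, 287 and 275 CPM in OP hearts, against 182, 230.0 and 205 CPM in OR hearts. Acot2 alone made up most of this sum in every heart, so the sum mainly repeats the Acot2 values. Of the flanking genes, Heatr4 averaged 41.5 ± 3.00 CPM in OP hearts and 28.2 ± 6.95 CPM in OR hearts with no overlap (limma adjusted p = 0.0837), while Numb, Riox1 and Dnal1 overlapped between groups. The type I genes are near-identical copies in parts of their sequence, so the counting may have dropped reads or divided them among Acot1 to Acot6, and the separate values of these genes are uncertain to that extent.

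**Figure D3:**
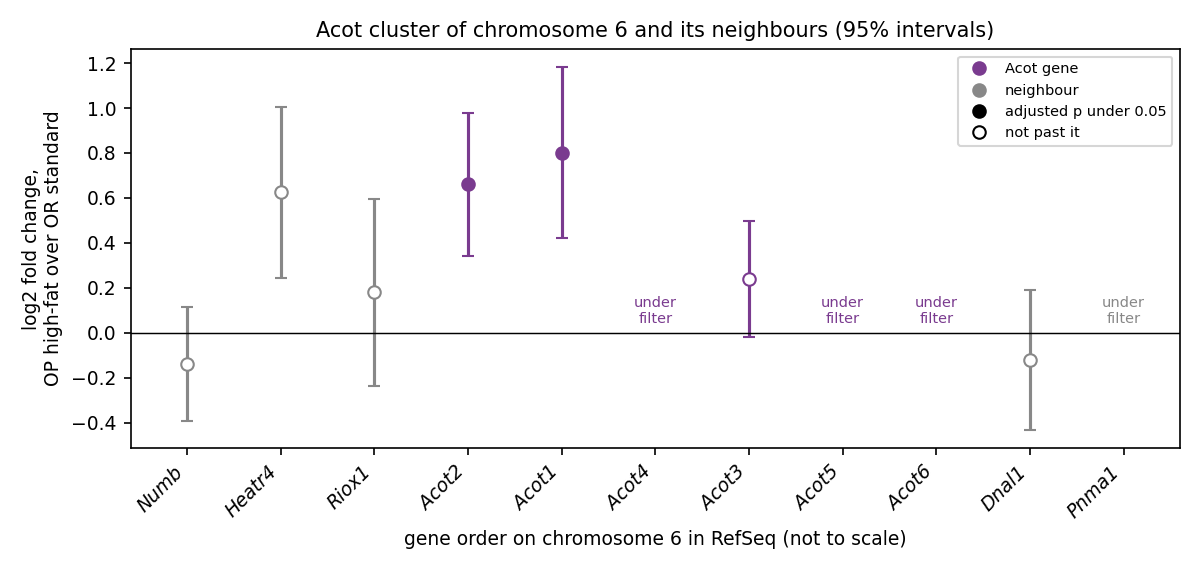
Log2 fold change of OP high-fat over OR standard hearts with 95% intervals (vertical axis) for the genes of the chromosome 6 cluster and its neighbours, in RefSeq order and not to scale (Acot genes purple, neighbours grey, filled where the adjusted p is under 0.05). Acot1 (0.80) and Acot2 (0.66) are the filled points, Acot3 (0.24) and Heatr4 (0.62) are not, and genes marked as under the filter were too low to test.

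The proportion of Acot1 to Acot2 was compared within libraries, where depth does not enter. It was 3.54, 3.42 and 3.55 Acot1 per 100 Acot2 in OP hearts, against 4.0, 2.72 and 2.81 in OR hearts. The OP values lay close together and inside the range of the OR values. Acot3 per 100 Acot2 was 5.92, 6.58 and 8.28 in OP hearts, against 9.60, 8.90 and 9.01 in OR hearts, lower in all OP hearts. This restates the levels given above, with Acot2 higher and Acot3 overlapping between groups, and is not a separate result. Over the 6 libraries the root mean square difference between the centred log2 values of Acot1 and Acot2 was 0.19, and 52 other tested genes lay closer to Acot1 than Acot2 did. The genes closest to Acot1 were Zfp503 (0.0932), Gsto1 (0.101) and Mertk (0.101). The genes closest to Acot2 were Gstt2 (0.0966), Zbtb7c (0.0976) and Map1b (0.101). These are distances on the log2 scale, given as a description.

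Acot7 is a cytosolic type II enzyme for long-chain acyl-CoA that is best known from brain. It measured 63.9, 53.8 and 60.3 CPM in OP hearts, against 48.3, 47.2 and 51.5 CPM in OR hearts. The groups did not overlap, with OP replicate 2 the lowest of the OP hearts. The log2 fold change was 0.32 with a 95% interval of 0.12 to 0.52 and did not pass the test (limma adjusted p = 0.0874). Without OP replicate 2 it was 0.37 with a limma adjusted p of 0.0431, and in that fit 2.92% of 13309 genes were called higher. Of the markers of neurons and Schwann cells, the Schwann cell gene Sox10 measured 10.3, 11.1 and 6.9 CPM in OP hearts, against 2.7, 4.5 and 2.55 CPM in OR hearts (log2 fold change 1.54, limma adjusted p = 0.0259). The neuronal genes Prph (7.48 CPM in OP hearts and 5.17 CPM in OR hearts), Uchl1 (4.92 and 2.32 CPM) and Tubb3 (3.62 and 2.73 CPM) had positive log2 fold changes that did not pass the adjusted test, with overlapping groups, and all 6 tested genes of the list lay above 0. Snap25 and Stmn2, which mark neurons as well, were at or under 0.5 CPM in every heart. The part of nerve cells in the Acot7 values was not tested.

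Acot13, a small type II enzyme associated with mitochondria, measured 129.6, 145 and 131 CPM in OP hearts, against 119.9, 107 and 124 CPM in OR hearts. All OP hearts again lay above all OR hearts, by a narrow margin. The log2 fold change was 0.26 with a 95% interval of 0.04 to 0.48 and did not pass the test (limma adjusted p = 0.167). In all, 4 of the 7 tested members had every OP heart above every OR heart, against 10.4% of all genes tested, and 0 had every OP heart below, against 17.7%.

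Acot8, Acot9 and Acot11 overlapped between the groups. Acot8, the broad-range peroxisomal thioesterase, measured 32.9, 27.1 and 31.5 CPM in OP hearts, against 33.1, 31.9 and 31.1 CPM in OR hearts. OP replicate 2 alone was low, and the log2 fold change was -0.03 with a 95% interval of -0.24 to 0.18 (limma adjusted p = 0.889). Acot9, a mitochondrial type II enzyme, measured 66.0, 56.8 and 56.4 CPM in OP hearts, against 58.1, 57.5 and 59.7 CPM in OR hearts. Its log2 fold change was 0.07 with a 95% interval of -0.13 to 0.28 (limma adjusted p = 0.655). Acot11, a long-chain thioesterase with a lipid-binding START domain that is known from brown fat of mice, measured 31.5, 34.3 and 29.3 CPM in OP hearts, against 38.1, 29.4 and 38.3 CPM in OR hearts. Its log2 fold change was -0.10 with a 95% interval of -0.41 to 0.21 (limma adjusted p = 0.704). RefSeq places Snx21 and Zswim3 over Acot8 and Fam151a over Acot11, by the whole span of the genes. Overlap of exons was not examined, nor was the build used by the authors. Whether the counting used strand is not stated in the labels or methods. Reads in any shared stretch of these 2 members may have been dropped or counted for a neighbour.

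Genes that make, carry or use the same acyl-CoA pool were counted next. Among 9 other tested thioesterases and among 16 tested acyl-CoA synthetases, the enzymes of the opposite reaction, 0 were called in either direction by limma, and each list held 1 gene above and 1 gene below at p under 0.05 before adjustment. All genes gave 1.47% called higher and 1.9% called lower. Without OP replicate 2, 1 gene of each list was called lower, against 2.99% of all genes in that fit. The median log2 fold change was 0.13 for the other thioesterases and -0.00 for the synthetases. In a list of 12 tested genes for coenzyme A synthesis, transport and breakdown, 1 rose and 1 fell, against 1.47% and 1.9% of all genes. Nudt7, a peroxisomal hydrolase that cleaves coenzyme A and acyl-CoA, measured 40.2, 49.4 and 38.0 CPM in OP hearts, against 26.4, 28.6 and 27.7 CPM in OR hearts (log2 fold change 0.66, limma adjusted p = 0.0354). Vnn1, a pantetheinase that breaks down a product of coenzyme A, measured 97.7, 64.6 and 79.8 CPM in OP hearts, against 130.3, 148 and 133 CPM in OR hearts (log2 fold change -0.74, limma adjusted p = 0.0292). Of 10 tested acyl-CoA binding and transfer genes, Dbi rose and 0 fell. Dbi encodes the acyl-CoA binding protein and measured 205, 218 and 177 CPM in OP hearts, against 154.5, 142 and 148 CPM in OR hearts (log2 fold change 0.47, limma adjusted p = 0.0493). Without any 1 of the OR libraries 0 genes were called in these last 2 lists. Without OP replicate 1 only Vnn1 was called, and without OP replicate 3 the calls were Nudt7 and Dbi. The call of Dbi was also lost with voom, without the filter, with a pseudocount of 1 and with at least 10 reads required in every library.

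Targets of PPAR outside the family were counted because Acot1 and Acot2 belong to the same group of inducible genes. Of 28 tested, 6 rose and 0 fell, against 1.47% and 1.9% of all genes, with a median log2 fold change of 0.30. Among them were Decr1 (log2 fold change 0.65) and Eci1 (0.46) for the oxidation of unsaturated fatty acids, Slc25a20 (0.54) and Cpt1a (0.44) of the carnitine shuttle, and Plin5 (0.53) of the lipid droplet surface. Decr1 measured 398, 354 and 359 CPM in OP hearts, against 242, 222 and 269 CPM in OR hearts (limma adjusted p = 0.0135). Adjusted p values of these 5 genes by limma were 0.0122 to 0.035. The list held 12 genes called higher without OP replicate 2, 4 without OP replicate 1, 3 higher and 1 lower without OP replicate 3, and 1 without OR replicate 3, while leaving out OR replicate 1 gave 0 and leaving out OR replicate 2 gave 0. Among all genes, the share called higher was 2.92% without OP replicate 2, 0.54% without OP replicate 1, 0.946% without OP replicate 3, and 0.272% to 0.317% without 1 OR library.

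Of 13 tested genes for PPAR receptors, their partners and coregulators, 0 rose and 3 fell, against 1.47% and 1.9% of all genes, with a median log2 fold change of -0.04. Ppara, which encodes PPARalpha, measured 30.1, 30.1 and 34.8 CPM in OP hearts, against 41.5, 49.0 and 54.1 CPM in OR hearts (log2 fold change -0.55, limma adjusted p = 0.0481). Its coactivator gene Ppargc1a averaged 39.0 ± 4.36 CPM in OP hearts and 59.1 ± 7.20 CPM in OR hearts (log2 fold change -0.55, limma adjusted p = 0.0464). Ppargc1b averaged 24.3 ± 5.15 CPM in OP hearts and 41.6 ± 4.10 CPM in OR hearts (log2 fold change -0.74, limma adjusted p = 0.0375). The list did not move in 1 direction, as 6 of the 13 genes had log2 fold changes above 0, against 50% of all genes. The receptor gene Pparg measured 12.2, 13.4 and 14.45 CPM in OP hearts, against 9.8, 10.7 and 9.8 CPM in OR hearts. All OP hearts lay above all OR hearts, but Pparg did not pass the test (log2 fold change 0.44, limma adjusted p = 0.0861). Calls in this list numbered 3 without OP replicate 2, 1 without OP replicate 3 and 0 when OP replicate 1 or any OR library was left out, and 1 with voom and 1 without the filter.

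**Figure D4:**
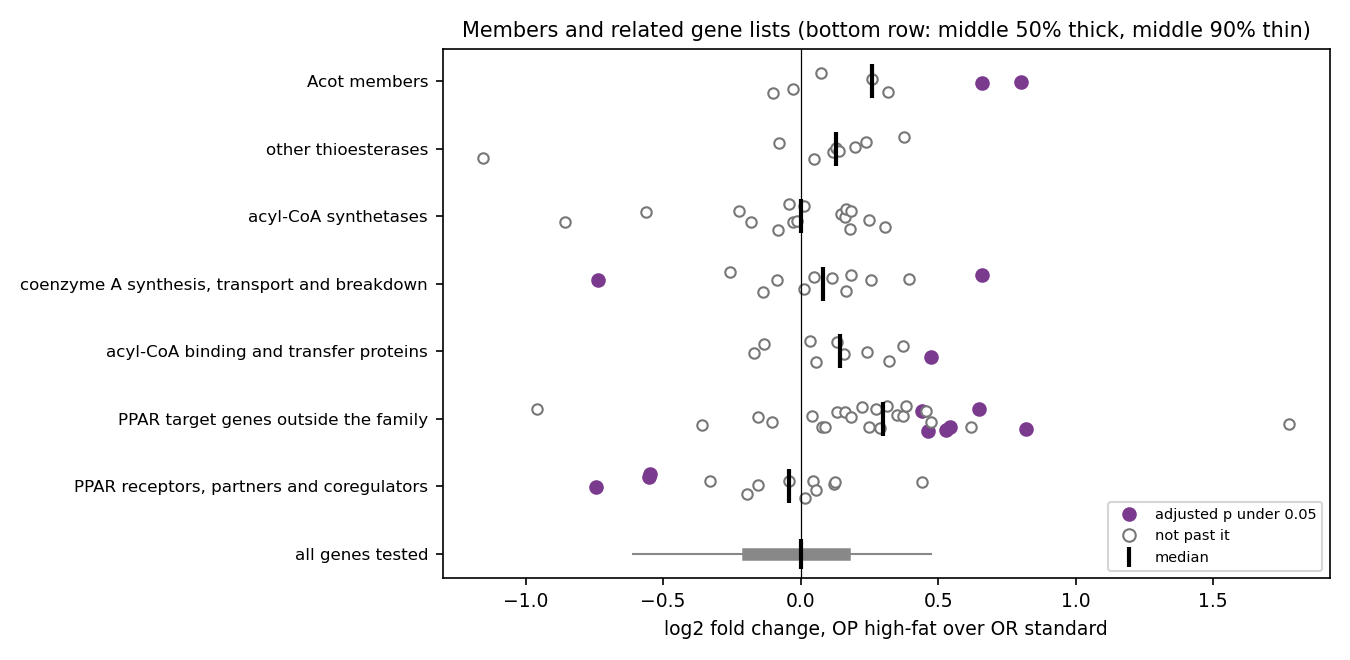
Log2 fold change of OP high-fat over OR standard hearts (horizontal axis) for each tested Acot member and each tested gene of 6 related lists, with purple points past an adjusted p of 0.05, open points not past it and black ticks at the median (bottom row, all genes tested). The median lies at 0.26 for the Acot members, 0.30 for PPAR targets and -0.04 for PPAR receptors and coregulators.

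Markers of other cell types moved with the groups as follows. The 6 white adipocyte genes summed to 662 to 701 CPM in OP hearts and to 463 to 588 CPM in OR hearts, mostly from Fabp4 and Lipe, which muscle and vessels of the heart also express. The defining gene Adipoq measured 0.3, 2.3 and 3.05 CPM in OP hearts, against 0, 0.6 and 0.1 CPM in OR hearts. Of the 5 brown adipocyte genes, Cidea rose (log2 fold change 0.92, limma adjusted p = 0.013) and Ppargc1a fell, Elovl3 was at 0 in every heart, and the sums overlapped (111 to 150 CPM in OP hearts and 104 to 119 CPM in OR hearts). The sums were also higher in all OP hearts for endothelial genes (1026 to 1184 CPM, against 800 to 991 CPM in OR hearts) and for smooth muscle and pericyte genes (599.9 to 806 CPM, against 496 to 577 CPM in OR hearts). Without Vwf the endothelial sums overlapped (545 to 829 CPM in OP hearts and 606 to 699 CPM in OR hearts). Of these 4 genes, Kdr and Cdh5 had log2 fold changes of 0.40 and 0.12 (limma adjusted p = 0.112 and 0.763). Tie1 and Egfl7 had log2 fold changes of -0.06 and -0.02, and each of the 4 overlapped between groups. The sums of 5 atrial muscle genes overlapped (786 to 2617 CPM in OP hearts and 1170 to 1514 CPM in OR hearts). Of these genes, 4 had log2 fold changes above 0. Myl7 measured 283.5, 251.8 and 221.6 CPM in OP hearts, against 114, 194 and 207 CPM in OR hearts. Its log2 fold change was 0.64 (limma adjusted p = 0.141). Sln was at 0.74 (limma adjusted p = 0.124) and Nppa at -0.11, both with overlapping groups. In whole tissue, a different share of a cell type and a different level of RNA per cell cannot be told apart, and the part of cell composition in the Acot values was not tested.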

How the data were processed

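RNA was sequenced from 6 hearts (3 OP high-fat, 3 OR standard), grouped as labelled. Per the submitters' processing notes and the study's methods, the authors trimmed reads with Trimmomatic, aligned them with STAR to Rnor 6.0 and counted reads per gene with HTSeq. The deposited values are a score per gene: the authors scaled reads to 20000000 per library and rounded up, so they are not raw counts. Whole reads were recovered from the steps between values (99.75% to 99.88% of values above 0 equalled a whole number of reads exactly). Rounding up adds at most 1 step of 0.05 CPM.

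Scores were divided by trimmed-mean (TMM) factors, a pseudocount of 4 (0.2 CPM) was added, and the log2 values were analysed by group with limma 3.58.1 in R 4.3.3 with a mean-variance trend (two-sided, Benjamini-Hochberg over 13445 genes), so fold changes of low genes are understated. Exact permutation of 3 against 3 cannot go below p = 0.1. The p values set the difference between group means against the spread between these 6 rats within their groups. The variance of each gene was moderated toward a trend over all genes tested. Steps were tested on simulated data. Alternatives were voom on recovered reads, other scalings, filters, pseudocounts (1 and 20), robust variances, a replicate block and each library left out.

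Named genes were the 8 members, called genes of 6 related lists (at most 6 each), the 3 genes closest to each called member, and leading or undetected markers. Members and lists were chosen with earlier results of these data known. Lists came from general knowledge, and some of their genes are not reported here. Acot3, Acot5, Acot6, the genes flanking the cluster and Pparg were named after their values were seen. So were the markers Lipe, Adipoq, Vwf, Kdr, Cdh5, Tie1, Egfl7, Myl7, Sln, Sox10, Prph, Uchl1, Tubb3, Snap25 and Stmn2. Promoters came from RefSeq (GRCr8), searched with Python 3.11.15.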

Additional observations from a re-analysis of the deposited data

How the results depend on the processing

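The call of Acot1 or Acot2 held in part of the settings tried, and the direction of both in all of them. Beside 2 members called with all 6 libraries, 1 was called with voom on recovered reads (Acot2), 0 without rescaling, 0 without the filter on low values and 0 with the replicate number as a block, and the count was 0 to 3 when each library was left out in turn. The limma adjusted p of Acot1 was 0.0382 to 0.18 over its 15 alternatives and that of Acot2 0.0352 to 0.172. The log2 fold change of Acot8 was -0.0783 to 0.0339 with each library left out and was above 0 only without OP replicate 2. Of 105 values of members, 87 kept their direction and their side of the threshold. With the block, 6 PPAR targets, 1 PPAR receptor or coregulator gene, 1 gene of the coenzyme A list and 0 acyl-CoA binding genes were called, against 6, 3, 2 and 1 without it. Over all genes, 453 were called, 281 with the replicate block and 56 to 786 with 1 library left out. Without rescaling, 33.1% of the calls were higher in OP hearts, against 43.5% with it. The cause of these changes was not tested. Same-numbered libraries correlated at 0.06, 0.07 and 0.13 in their deviations from the group means, and OP replicate 1 correlated best with OR replicate 3, so the numbers were not taken as pairs. With 3 rats a group and Acot4 at 1 to 10 reads a library, differences of the size seen for Acot4 were not resolved.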
